A study of Mus musculus with 12 samples.

Results

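Nr2e3, Clip4 and Ngfr are 3 of the 23586 genes in a table of RNA sequencing values from cultured mouse muscle stem cells, and were chosen by their normalized counts, since all 3 were lower in libraries labelled with a SIX2 plasmid than in libraries labelled with the empty plasmid, in both sorted cell populations. The differences by plasmid label below are therefore descriptions and carry no test. The cells are the resident progenitors of skeletal muscle, and all groups carried the Pax3nLacZ-IRES-GFP allele, whose GFP reports Pax3, a paired-box factor of muscle progenitors. They were sorted by GFP, grown in medium with 20% fetal serum and 4 ng/mL basic FGF, and transfected with 2 µg of plasmid. The 4 groups were GFP-positive (PAX3-positive) cells given pCR3-Six2, a plasmid with the mouse Six2 coding DNA, GFP-positive cells given empty pCR3, GFP-negative (PAX3-negative) cells given pCR3-Six2, and GFP-negative cells given empty pCR3. Each group had 3 libraries, each from at least 50000 cells. The labels name no animals or separate cultures behind the 3 libraries, nor the age of the animals, so the p-values below reflect library-to-library spread alone, which may be technical. The labels say that Six2 RNA was checked by RT-qPCR but give no value, and no share of cells that took up plasmid.

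Total reads per library were 12632428 to 15492340 for GFP-positive SIX2, 31295165 to 47299937 for GFP-positive control, 34048869 to 40182810 for GFP-negative SIX2 and 12438885 to 33151990 for GFP-negative control. Values are normalized counts, reads divided by a size factor per library, in which 1 read was worth 0.553 to 2.14. Neither label was clearly borne out by its own gene, Six2 for the plasmid and Pax3 for GFP. Among GFP-positive libraries Six2 itself averaged 19.5 ± 11.5 normalized counts with the SIX2 label and 7.34 ± 5.24 with the control label (SD, n = 3 each). Among GFP-negative libraries it averaged 21.9 ± 2.37 with the SIX2 label and 14.8 ± 10.1 with the control label. The plasmid labels overlapped in both populations. With the control plasmid, Pax3 averaged 72.2 ± 19.0 for GFP-positive cells against 71.4 ± 2.79 for GFP-negative cells. With the SIX2 plasmid it averaged 10.4 ± 5.69 for GFP-positive cells against 16.5 ± 2.72 for GFP-negative cells, with overlap. By plasmid label Pax3 with SIX2 was thus at 14.3% of the control mean among GFP-positive cells and 23.1% among GFP-negative cells, without overlap in either. Directions below are therefore directions between labels. Of 10 markers of muscle stem cells and myoblasts, all 10 were detected in every group, with summed levels between 315970 and 442390 normalized counts. Most of the sum came from Des, Chrna1 and Myog, while Pax7 had group means of 98.0 to 169.5. By plasmid label 4 of them were higher and 2 lower among GFP-positive libraries, and 4 higher and 5 lower among GFP-negative ones (limma-trend adjusted p under 0.05). Pax7, Myf5, Vcam1 and Sdc4 were higher with SIX2 in both populations, and Myog and Des lower in both. Cdh15, Itga7 and Chrna1 were called lower in GFP-negative libraries only. Of all tested genes, 12.1% were called higher and 11.2% lower in GFP-positive, and 13.6% and 14.3% in GFP-negative libraries. The part of these marker changes in those of the 3 genes was not tested.

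The 3 genes have separate roles. Nr2e3 encodes an orphan nuclear receptor best known from the retina, where it acts with the factors CRX and NRL to favour rod over cone gene expression. Clip4 encodes a protein with CAP-Gly domains, the microtubule-binding fold of the CLIP family, whose founding member tracks growing microtubule ends. Ngfr encodes p75, a member of the TNF receptor superfamily with a death domain that binds BDNF and the other neurotrophins, alone or with TRK receptors and sortilin. It is a common marker of neural crest and Schwann cells and is also known from myoblasts.

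On GRCm38, Nr2e3 (ENSMUSG00000032292.8) lies on chromosome 9 from 59942771 to 59960659 on the minus strand, Clip4 (ENSMUSG00000024059.10) on chromosome 17 from 71768473 to 71864273 on the plus strand, and Ngfr (ENSMUSG00000000120.6) on chromosome 11 from 95568818 to 95587735 on the minus strand. The 250 bases before the first RefSeq start of each gene (GRCm38.p6) are printed because the 3 genes were chosen as moving together under a plasmid for a DNA-binding factor. Capitals mark E-boxes, CANNTG, the letters bound by basic helix-loop-helix factors such as MyoD. The windows are chr9:59950080-59950329 (minus strand), chr17:71769441-71769690 (plus strand) and chr11:95587699-95587948 (minus strand). The Nr2e3 and Clip4 windows lie inside the gene spans given above, since the RefSeq starts are downstream of the starts of those spans.
Nr2e3: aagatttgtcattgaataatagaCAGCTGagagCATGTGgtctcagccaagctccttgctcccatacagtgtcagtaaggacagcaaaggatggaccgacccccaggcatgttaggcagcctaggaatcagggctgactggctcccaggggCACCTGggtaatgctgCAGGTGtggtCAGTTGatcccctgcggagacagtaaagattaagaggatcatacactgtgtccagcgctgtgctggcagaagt
Clip4: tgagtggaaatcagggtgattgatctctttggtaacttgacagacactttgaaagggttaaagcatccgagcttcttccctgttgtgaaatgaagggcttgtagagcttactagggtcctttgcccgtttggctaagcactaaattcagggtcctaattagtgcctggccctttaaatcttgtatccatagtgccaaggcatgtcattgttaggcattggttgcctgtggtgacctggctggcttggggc
Ngfr: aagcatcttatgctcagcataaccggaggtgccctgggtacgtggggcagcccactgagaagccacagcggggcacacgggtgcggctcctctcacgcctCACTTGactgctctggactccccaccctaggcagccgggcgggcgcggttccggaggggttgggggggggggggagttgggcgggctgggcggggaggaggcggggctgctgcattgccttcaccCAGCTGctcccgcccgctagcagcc

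The windows held none of the searched letters of SIX2-family or PAX3 sites. Both strands of the whole window (250 bases before to 50 after the start) were searched for TCAGGTTTC, the MEF3 letters bound by SIX2 and its relatives, for TGATAC, a core of such sites, for GTCACGC, letters of the PAX3 paired domain, and for CANNTG. The first 3 occurred in none of the windows of Nr2e3, Clip4 (which has 3 listed starts) or Ngfr, and occur in 0.429%, 5.46% and 2.09% of all 32851 windows. E-boxes numbered 5 before the RefSeq start of Nr2e3, the nearest at 73 bases, and 2 before that of Ngfr, at 150 and 25 bases. Clip4 had none in the window printed, and 2 and 1 in its other windows. Of all windows, 72.3% hold at least 1 E-box. The Ngfr window is rich in GC (70.4%, with 16 CpG), against 52.8% for Nr2e3, 47.2% for Clip4 and a median of 52.4% over all windows. Searched letters absent from a window say nothing of sites elsewhere. For Nr2e3 and Clip4 the bases before the start of the gene span were not searched.

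Nr2e3 was close to the detection floor in libraries labelled SIX2 and clearly detected in those labelled control. It had 1.79, 5.85 and 4.88 normalized counts in the GFP-positive SIX2 libraries, against 68.1, 62.0 and 88.6 in the matching control libraries. It had 0.714, 1.32 and 7.82 in the GFP-negative SIX2 libraries, against 47.1, 58.7 and 48.8 in the GFP-negative control libraries. Every SIX2 library was thus below every control library of either population, and the highest SIX2 value came from GFP-negative library 3. Behind these values stood 1, 3 and 3 reads in GFP-positive SIX2 libraries and 1, 2 and 13 reads in GFP-negative SIX2 libraries, against 89 to 112 and 22 to 74 reads in the control libraries. On pooled reads, the level with SIX2 was 5.83% of control in GFP-positive cells (exact 95% interval 2.32 to 12.2%) and 6.59% in GFP-negative cells (3.67 to 11.1%). Such intervals, here and below, cover counting error only. Without GFP-negative SIX2 library 3, the mean in GFP-negative SIX2 libraries would be 1.97% of the control mean, in place of 6.37%. The log2 difference was -3.92 ± 0.58 (SE) for GFP-positive and -4.00 ± 0.58 for GFP-negative libraries, the value of rank 4 from the bottom among 14580 tested genes in each. In bulk samples, fewer cells that make a transcript and less transcript per cell cannot be told apart.

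Clip4 was likewise lower in every SIX2 library. Its pooled shares of control were above those of Nr2e3, but the intervals of the 2 genes overlap in both populations. The order of the 2 genes is therefore not settled. It had 16.1, 7.79 and 4.88 normalized counts in GFP-positive SIX2 libraries, against 70.4, 83.0 and 93.6 in GFP-positive control libraries. It had 16.4, 5.27 and 6.02 in GFP-negative SIX2 libraries, against 98.5, 72.9 and 108 in GFP-negative control libraries. The SIX2 and control ranges did not overlap, and library 1 was the highest SIX2 library in both populations. With 16 reads in all in the GFP-positive SIX2 libraries against 353 in control, and 41 against 253 in GFP-negative libraries, the pooled level was 11.6% of control in GFP-positive cells (exact 95% interval 6.53 to 19.0%) and 9.88% in GFP-negative cells (6.93 to 13.8%). Leaving out library 1 of the SIX2 group, the mean with SIX2 would be 7.70% of the control mean in GFP-positive cells, in place of 11.6%, and 6.06% in GFP-negative cells, in place of 9.92%. The log2 differences were -3.11 ± 0.46 (SE) and -3.34 ± 0.46, ranks 19 and 6 from the bottom.

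Ngfr was the most abundant of the 3 and kept the largest share of its level. It had 213, 224 and 225 normalized counts in GFP-positive SIX2 libraries, against 456, 566 and 525 in GFP-positive control libraries. It had 228, 222 and 174 in GFP-negative SIX2 libraries, against 379, 488 and 450.2 in GFP-negative control libraries. The lowest control library, GFP-negative library 1, was above the highest SIX2 library. The pooled level with SIX2 was 42.3% of control in GFP-positive cells (exact 95% interval 37.8 to 47.2%, on 372 and 2240 reads) and 45.4% in GFP-negative cells (41.7 to 49.4%, on 947 and 1273 reads). The log2 differences were -1.22 ± 0.14 (SE) and -1.08 ± 0.14, ranks 362 and 553 from the bottom among 14580 genes, so Ngfr was not among the steepest falls of the table.

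**Figure D1:**
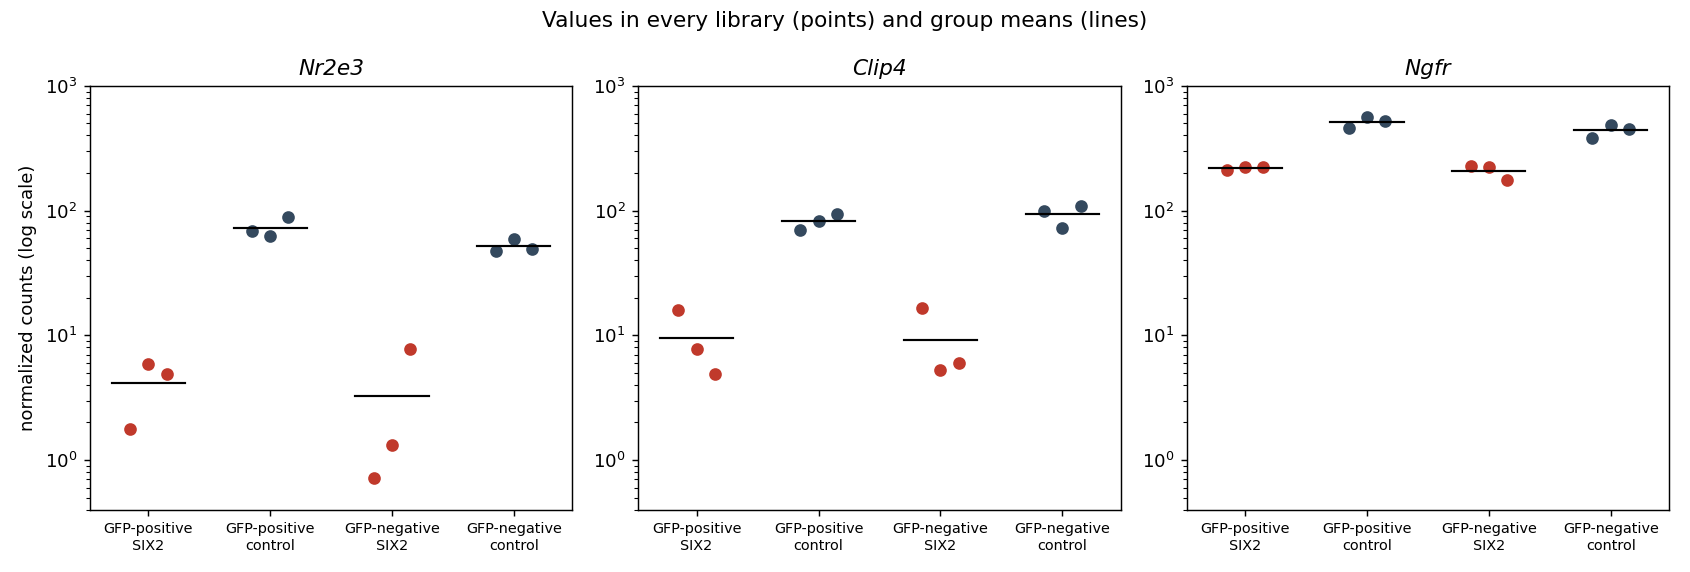
Normalized counts (log axis) of Nr2e3, Clip4 and Ngfr in each of the 12 libraries, in 4 groups of 3, with points for libraries and lines for group means. The SIX2 libraries (red) lie below the control libraries (dark) for all 3 genes, with means of 4.17 against 72.9 for Nr2e3, 9.59 against 82.3 for Clip4 and 220.5 against 515 for Ngfr in GFP-positive cells.

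All 3 genes thus had SIX2 libraries wholly below control libraries in both populations, as the choice of genes fixes. The same held for 18.1% of the 14580 tested genes in GFP-positive libraries and for 23.5% in GFP-negative ones, and 11.2% and 14.3% were called lower at a limma-trend adjusted p under 0.05. The difference between the populations in the plasmid-label change was 0.08 ± 0.82 (SE) for Nr2e3, 0.23 ± 0.65 for Clip4 and -0.14 ± 0.20 for Ngfr on the log2 scale, GFP-positive minus GFP-negative. These differences are built from the comparisons that chose the genes and were not tested. Over all 14580 tested genes, 0 passed the limma-trend threshold for such a difference. A gene called below in 1 population only is therefore not shown to differ between the populations. Per kilobase of the exons of coding transcripts, the order of levels in GFP-positive control libraries was Ngfr at 149.6, Nr2e3 at 35.8 and Clip4 at 14.9 normalized counts, and in GFP-negative control libraries Ngfr at 127, Nr2e3 at 25.3 and Clip4 at 16.9. With SIX2, Ngfr was again the highest, at 64.0 for GFP-positive and 60.4 for GFP-negative cells. Nr2e3 and Clip4 had no set order there, at 2.05 and 1.74 for GFP-positive and 1.61 and 1.68 for GFP-negative cells, with overlap between the genes in both populations. Clip4 had more reads than Nr2e3 in every group but a longer exon model (5510 bases against 2037).

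The GFP label, which the choice of genes did not use, gave no call. Of the 3 genes, 0 passed the limma-trend threshold between GFP-positive and GFP-negative libraries under either plasmid label. Of all tested genes, 3.48% were called under the control label and 0.192% under the SIX2 label. An unadjusted limma-trend p under 0.05 was seen for 0 of the 3, against 2889 and 1893 of all 14580 tested genes. Both edgeR and DESeq2 called 0 of the 3. Of all tested genes they called 440 and 1087 under the control label, and 29 and 294 under the SIX2 label. With the control plasmid, Nr2e3 averaged 72.9 ± 13.9 normalized counts in GFP-positive and 51.5 ± 6.24 in GFP-negative control libraries (SD, n = 3 each), a log2 difference of 0.48 with a 95% interval of -0.76 to 1.73 (limma-trend adjusted p = 0.694). These Nr2e3 groups did not overlap, as was so for 27.2% of tested genes in either direction. Clip4 averaged 82.3 ± 11.7 in GFP-positive and 93.1 ± 18.1 in GFP-negative control libraries, a log2 difference of -0.17 (-1.15 to 0.82, limma-trend adjusted p = 0.882), with overlap. Ngfr averaged 515 ± 55.5 in GFP-positive and 439 ± 55.4 in GFP-negative control libraries, a log2 difference of 0.23 (-0.07 to 0.54, limma-trend adjusted p = 0.392), also with overlap.

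With the SIX2 plasmid, the populations overlapped for all 3 genes, while 17.2% of tested genes had no overlap. Nr2e3 averaged 4.17 ± 2.12 for GFP-positive and 3.28 ± 3.94 for GFP-negative libraries, a log2 difference of 0.56 (95% interval -0.69 to 1.81, limma-trend adjusted p = 0.721). Clip4 averaged 9.59 ± 5.81 and 9.24 ± 6.23 in the same order, a difference of 0.07 (-0.91 to 1.05, limma-trend adjusted p = 0.964). Ngfr averaged 220.5 ± 6.83 for GFP-positive and 208 ± 29.5 for GFP-negative libraries, a difference of 0.09 (-0.21 to 0.40, limma-trend adjusted p = 0.829). The intervals for Nr2e3 and Clip4 leave room for differences of more than 1 log2 unit in at least one direction, while those of Ngfr end at 0.54. A p that misses the threshold does not show that the populations are alike.

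**Figure D2:**
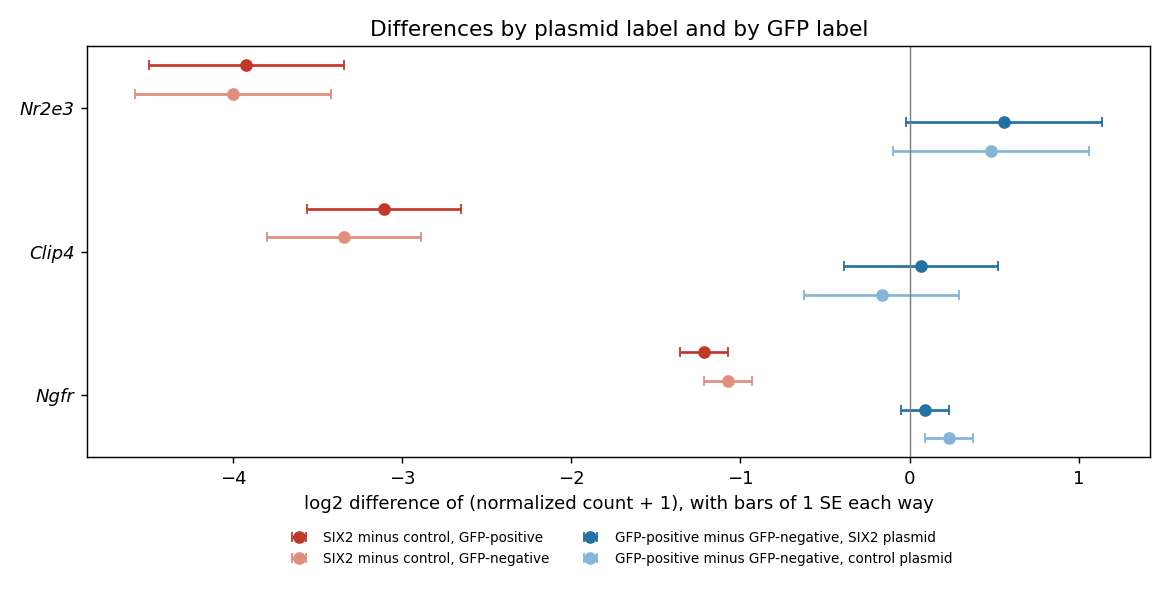
Log2 differences of normalized count + 1 with bars of 1 SE each way, by plasmid label (red, SIX2 minus control) and by GFP label (blue, GFP-positive minus GFP-negative). The plasmid-label differences, which chose the genes, run from -4.00 for Nr2e3 to -1.08 for Ngfr, and the GFP-label differences lie between -0.17 and 0.56.

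Bdnf, which encodes a ligand of p75, rose in GFP-positive libraries labelled SIX2, where 12.1% of all tested genes were called higher and 11.2% lower. It averaged 61.2 ± 12.95 normalized counts in GFP-positive SIX2 and 25.5 ± 7.60 in GFP-positive control libraries (SD, n = 3 each), a log2 change of 1.25 ± 0.34 (SE, limma-trend adjusted p = 0.0168). In GFP-negative cells Bdnf averaged 67.0 with SIX2 and 34.4 with control and was not called (log2 0.91, limma-trend adjusted p = 0.062). Ntf5, mouse neurotrophin 4, had 8.50 against 6.42 in GFP-positive and 14.3 against 5.35 in GFP-negative libraries, SIX2 against control, and Ntf3 was under the filter with means of at most 4.82.

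Among receptors and co-receptors, Ntrk3, a TRK receptor, was at the floor. It had 0 reads in 3 of the 4 groups and a mean of 0.420 in GFP-negative SIX2 libraries, and Ntrk2 was not analysed here. Of 5 tested receptors other than Ngfr, 2 fell and none rose in each population, Sorcs2 and Tnfrsf19, against 14.3% called lower and 13.6% called higher of all genes in GFP-negative libraries. Sorcs2, a sortilin-family receptor that pairs with p75, averaged 879 in GFP-positive SIX2 and 1403 in GFP-positive control libraries (log2 -0.68 ± 0.13 SE, limma-trend adjusted p = 0.00201). In GFP-negative cells it averaged 759.8 with SIX2 and 1537 with control (-1.03 ± 0.13, limma-trend adjusted p = 8.15e-05). Tnfrsf19, a TNF receptor family member also called TROY, fell in both populations, by log2 changes of -0.44 (GFP-positive, limma-trend adjusted p = 0.0281) and -0.47 (GFP-negative, adjusted p = 0.0179). Sort1, sortilin, had log2 changes of 0.12 and -0.06 and was not called in either population (limma-trend adjusted p = 0.623 and 0.785).

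Of 21 adaptors and proteases of p75, 2 were higher and 3 lower in GFP-positive, and 2 higher and 5 lower in GFP-negative libraries labelled SIX2, with median log2 changes of -0.09 and -0.12 beside -0.01 and 0.00 over all tested genes. Of all tested genes, 12.1% were called higher and 11.2% lower in GFP-positive, and 13.6% and 14.3% in GFP-negative libraries. Bex1, a small adaptor of p75, fell in both (log2 -0.55 and -0.72), as did Maged1, the adaptor NRAGE (-0.26 and -0.17). Ndn, necdin, rose in both (0.95 and 0.47), as did Ripk2, a kinase that binds the p75 death domain (0.86 and 0.82). Prdm4, a zinc finger partner of p75, fell among GFP-negative cells (-1.12, limma-trend adjusted p = 5.38e-05), where its control mean of 619 stood above the 276 to 306 of the other 3 groups. Sqstm1, the autophagy adaptor p62, also fell there, with a log2 change of -0.32, and had 0.11 in GFP-positive libraries (limma-trend adjusted p = 0.268).

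In the wider TNF receptor superfamily, 2 of 15 tested members other than Ngfr were higher and 2 lower in GFP-positive libraries labelled SIX2, and 1 was higher and 4 lower in GFP-negative ones. The shares over all tested genes were 12.1% higher and 11.2% lower in GFP-positive, and 13.6% and 14.3% in GFP-negative libraries. Tnfrsf13c, the BAFF receptor, fell in both (log2 -0.82 and -0.75), and Tnfrsf1b, the second TNF receptor, rose in both (1.21 and 0.59). Eda2r, an ectodysplasin receptor, rose in GFP-positive libraries (0.41) and had 0.28 in GFP-negative ones (limma-trend adjusted p = 0.0572). Ltbr, the lymphotoxin beta receptor, and Cd27 fell in GFP-negative libraries (-0.70 and -1.13). In GFP-positive ones they had -0.12 and -0.71 (limma-trend adjusted p = 0.546 and 0.0611). Tnfrsf19 is counted here as well.

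Nr2e3 had the most negative log2 difference by plasmid label of 36 tested nuclear receptors in both populations. Its choice for this fall made that place likely in advance. Of 35 other tested receptors, 9 were higher and 3 lower in GFP-positive, and 7 higher and 5 lower in GFP-negative libraries labelled SIX2, with median log2 changes of 0.16 and 0.02. Over all tested genes 12.1% were higher and 11.2% lower in GFP-positive, and 13.6% and 14.3% in GFP-negative libraries. Rxrg, a retinoid X receptor, fell in both (log2 -0.76 and -0.70), with means of 756 against 1280 in GFP-positive cells, SIX2 against control, and Pparg, a fatty acid-activated receptor of adipocytes, fell in both (-1.04 and -0.83). The clock repressors Nr1d1 and Nr1d2 rose in GFP-positive libraries (0.54 and 0.45). In GFP-negative ones they had 0.25 and 0.02 (limma-trend adjusted p = 0.0507 and 0.9065). Esrrg, an orphan receptor of oxidative metabolism, rose in both (0.74 and 0.87). Nr2e1, the closest relative of Nr2e3, was not analysed here.

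Genes of photoreceptors, the cells in which Nr2e3 is best known, were low throughout. Of 32 listed genes 22 were in the table and 8 passed the filter on low values. The 22 summed to 156 to 207 normalized counts in GFP-positive SIX2, 214 to 260.1 in GFP-positive control, 189 to 239.9 in GFP-negative SIX2 and 182 to 224 in GFP-negative control libraries. Of the 8, 0 were called by plasmid label in either population with limma-trend, edgeR or DESeq2. For GFP-positive cells 3 of the 8 had an unadjusted limma-trend p under 0.05, against 5099 of all 14580 tested genes. For GFP-negative cells 1 of the 8 did, against 5684 of the 14580. The median log2 change of the 8 was -1.14 for GFP-positive cells and 0.38 for GFP-negative cells. Over all tested genes it was -0.01 and 0.00, in the same order. Cnga1, a channel of rods, had 0 reads in 3 groups, and Crx and Nrl were not analysed here.

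Clip1 and Clip3, relatives of Clip4, were called in GFP-positive libraries, in opposite directions. Clip1, the plus-end tracking protein CLIP-170, averaged 2380 in GFP-positive SIX2 and 3275 in GFP-positive control libraries (log2 -0.45, limma-trend adjusted p = 0.0184), and had -0.14 in GFP-negative libraries (adjusted p = 0.441). The difference between these 2 changes was -0.31 ± 0.18 (SE, limma-trend adjusted p = 0.396). Clip3, of trans-Golgi membranes, rose by 0.66 in GFP-positive libraries (limma-trend adjusted p = 0.0365) and had 0.23 in GFP-negative ones (adjusted p = 0.455). Clip2, low at means of 25.1 to 39.3, was called in neither. Of 24 tested CAP-Gly and plus-end genes other than Clip4, 7 rose and 2 fell in GFP-positive and 8 rose and 4 fell in GFP-negative libraries, with median log2 changes of 0.17 and 0.15. Among all tested genes 12.1% rose and 11.2% fell in GFP-positive, and 13.6% rose and 14.3% fell in GFP-negative libraries. Gtse1 and Kif2c, which act on microtubules in mitosis, rose in both (1.06 and 1.16 for Gtse1, 0.90 and 1.04 for Kif2c). Nde1, a dynein regulator, rose in both (0.54 and 0.37). Tbce, a tubulin-folding cofactor, fell in GFP-positive libraries (-0.41) and had -0.22 in GFP-negative ones (limma-trend adjusted p = 0.0788). Mapre3, the end-binding protein EB3, fell in GFP-negative libraries (-0.49) and had -0.23 in GFP-positive ones (limma-trend adjusted p = 0.0576). Slain2, a partner of end-binding proteins, fell among GFP-negative cells (-1.95, limma-trend adjusted p = 7.02e-05), where its control mean of 4374 compares with 1103 to 1138 in the other 3 groups.

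**Figure D3:**
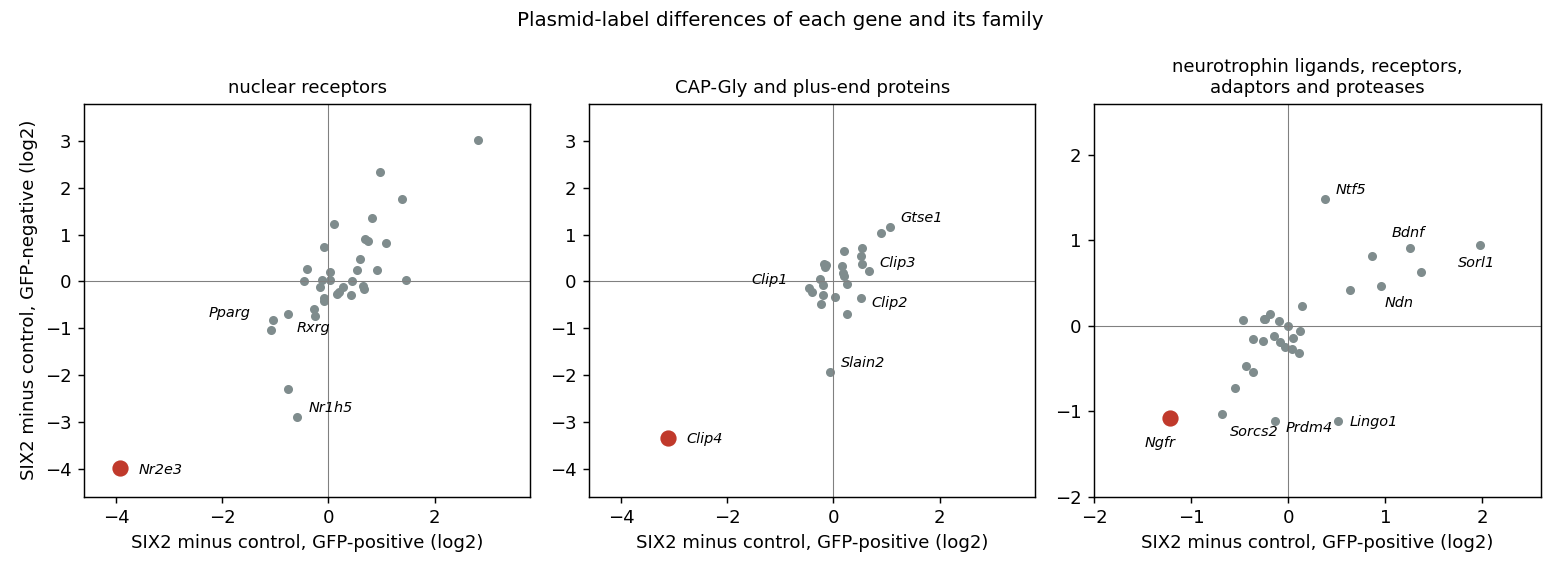
Log2 differences by plasmid label (SIX2 minus control) in GFP-positive (horizontal) and GFP-negative libraries (vertical) for the tested genes of each family, with the chosen gene in red and other members in grey. The right panel has a narrower scale. Nr2e3 (-3.92, -4.00) and Clip4 (-3.11, -3.34) are the lowest points of their families on both axes, which their choice for these falls made likely. Ngfr (-1.22, -1.08) has Sorcs2 (-0.68, -1.03) nearby and Bdnf (1.25, 0.91) on the other side of 0.

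Genes overlapping the 3 or starting within 100 kb were read beside them. The library protocol does not mark strand, which bears only on overlapping genes of the opposite strand. Togaram2, a TOG-domain gene whose start lies 95.2 kb before that of Clip4, averaged 1.79 normalized counts in GFP-positive SIX2 and 17.0 in GFP-positive control libraries (log2 -2.59, limma-trend adjusted p = 0.0308), and 1.48 and 6.69 in GFP-negative SIX2 and control libraries (-1.54, adjusted p = 0.173). Phb, 79.2 kb from Ngfr, had log2 changes of -0.15 and 0.17 and was called in neither population (limma-trend adjusted p = 0.262 and 0.173). The antisense gene Gm7616, on the opposite strand, and the lincRNA Gm15507, on the same strand, overlap Nr2e3. The second shares 61 exon bases, and neither was analysed here. Gm20275 and Gm48805 near Nr2e3 and Nxph3 near Ngfr did not pass the filter on low values, with means of at most 1.83. No gene overlaps Clip4 or Ngfr in this annotation.

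Markers of Schwann and neural crest glia, which express Ngfr, were read beside its level. Of 11 such markers 8 were in the table and 4 passed the filter. The 8 summed to 3042 to 3476 normalized counts in GFP-positive SIX2 against 3843 to 4504 in GFP-positive control, and 2651 to 3227 in GFP-negative SIX2 against 3886 to 4596 in GFP-negative control libraries. Most of the sum was Erbb3, a neuregulin receptor, with means of 2791 against 3766 for GFP-positive and 2393 against 3809 for GFP-negative libraries, SIX2 against control. S100b, a calcium-binding protein of Schwann cells, had means of at most 1.12, and Sox10, Foxd3 and Gfap were not analysed here. Cdh19, a cadherin of Schwann cell precursors, had 0 reads in all groups but GFP-positive control. By plasmid label 2 of the 4 fell in GFP-positive libraries (Erbb3 and Fabp7) and 1 in GFP-negative libraries (Erbb3). For these and the marker counts below, 11.2% of all tested genes fell and 12.1% rose in GFP-positive libraries. In GFP-negative libraries 14.3% fell and 13.6% rose. Over both populations, 7 endothelial markers summed to 21.7 to 64.3 with SIX2 and 72.9 to 136 with control, mostly Vwf, the 1 tested, which fell in both. The 5 leukocyte markers in the table summed to 64.5 to 111 with SIX2 and 97.5 to 111 with control. Of 3 tested, 1, Csf1r, rose in both with limma-trend, from low control means of 5.50 (GFP-positive) and 4.95 (GFP-negative). In GFP-positive libraries edgeR called 0 of the 3 and DESeq2 1. The other 2, Cd68 and Itgam, were not called, with log2 changes of -1.10 and -0.32 in GFP-positive and -0.13 and -1.56 in GFP-negative libraries. The 9 fibro-adipogenic markers summed to 6569 to 7304 with SIX2 and 3982 to 6240 with control, mostly Col3a1 and Gsn, with Dcn at 0 reads in 3 groups and 2 of 5 tested higher in each population. The 7 pericyte and smooth muscle markers summed to 2372 to 3532 with SIX2 and 3055 to 3837 with control, with 2 of 5 tested higher and 1 lower in each population. The part of these levels in the changes of Nr2e3, Clip4 and Ngfr was not tested.

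The genes whose pattern over the 12 libraries was most like that of each gene were found by Pearson's r of log2(normalized count + 1), as a description. For all 3 genes the libraries fall into SIX2 and control clusters, which these genes share. For Nr2e3 they were Gm43824 (r = 0.986), the lipid phosphatase Pip4p2 (0.977), Gm49808 (0.976), the mitochondrial protease Parl (0.975) and the nuclear protein Akirin1 (0.970). For Clip4 they were the adaptor Skap2 (0.967), the homeobox factor Emx2 (0.966), Maged2 (0.963), Uap1l1 (0.962) and the palmitoyltransferase Zdhhc16 (0.959). For Ngfr they were the connexin Gja5 (0.986), the potassium channel subunit Kcnf1 (0.985), Tor3a (0.985), the endoplasmic reticulum protein Reep1 (0.983) and the sodium-calcium exchanger Slc24a4 (0.983). The differences of these genes varied in size, with Gja5 at 2210 against 4420.5 and Slc24a4 at 1169 against 2971 normalized counts in GFP-positive libraries, SIX2 against control, and Parl at 2076 against 2811. The 3 chosen genes were not each other's nearest, with r = 0.858 for Nr2e3 and Clip4, 0.902 for Nr2e3 and Ngfr, and 0.926 for Clip4 and Ngfr, where Clip4 took place 229 among 14579 genes by likeness to Ngfr.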

How the data were processed

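RNA from transfected muscle stem cells was made into SMART-Seq2 cDNA, fragmented with Tn5 and amplified, per the labels' protocols, a protocol that does not mark strand. Per the submitters' processing notes, the tools included STAR 2.7.11a, RSEM 1.3.3 and DESeq2 1.42.0, on GRCm38, with no settings given. The authors deposited normalized counts per gene, a signal on a linear scale. Each library's values are multiples of what 1 read is worth, and 100% came out as whole reads within 1e-04. The main test was limma-trend, from limma 3.58.1 under R 4.3.3, of log2(normalized count + 1), 4 group means over 12 libraries, two-sided, Benjamini-Hochberg adjusted over 14580 genes with at least 10 in at least 3 libraries, threshold 0.05. The added 1 understates changes of low genes. edgeR 4.0.16 and DESeq2 were run on the recovered reads as alternatives, with other pseudocounts, filters, TMM scaling and left-out libraries. The fit was tested on simulated data, for the GFP comparison under the control plasmid only. The simulation changed only well-detected genes and gave all genes the same spread, so it says nothing of genes near the detection floor. Of the identifiers, 99.8% matched GENCODE M21 (GRCm38), and promoters are from RefSeq (GRCm38.p6).

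The members and gene lists were chosen with earlier results of these data known. Named genes were the 3 members, Six2 and Pax3 as label checks, the nearest relatives, ligands and receptors, up to 4 called genes with the smallest p per pathway list and plasmid comparison, the 5 genes most like each member, and genes overlapping or starting within 100 kb. Some genes that this rule or these lists hold are not reported here. Genes named besides these (cell type marker genes and Cnga1) were chosen after their values were seen. Libraries of 1 group differed beyond sampling noise (chi-square over its degrees of freedom 7.71 to 49.4). Figures used matplotlib 3.10.9.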

Additional observations from a re-analysis of the deposited data

How the results depend on the processing

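Nr2e3, Clip4 and Ngfr kept the direction of their plasmid-label change under all 21 alternatives in both populations, which their choice for this fall made likely. Other filters, the replicate block, a fit to the compared libraries only and left-out libraries of the other population cannot move this change. Those alternatives therefore do not test it. The log2 change lay between -4.71 and -2.86 for Nr2e3, -3.81 and -2.85 for Clip4 and -1.18 and -0.95 for Ngfr among GFP-negative libraries. Among GFP-positive libraries it lay between -4.17 and -3.10, -3.52 and -2.65, and -1.30 and -1.15, in the same gene order. A pseudocount of 5 moved Nr2e3 to -2.86 (GFP-negative) and -3.10 (GFP-positive). By its construction, a larger pseudocount shrinks the change of low genes. Between GFP labels no alternative called any of the 3 genes. The difference reversed for Clip4 under the SIX2 label (0.07) to -0.35 without GFP-positive SIX2 library 1, and to -0.20 and -0.12 without GFP-negative SIX2 library 2 or 3, with a range of -0.35 to 0.53. For Ngfr (0.09) it reversed to -0.031 without GFP-negative SIX2 library 3, with a range over single left-out libraries of -0.031 to 0.16. Over single left-out libraries, the number of genes past the threshold ranged from 68 (without GFP-negative control library 1) to 820 (without GFP-positive control library 3) between GFP labels under the control plasmid (507 with all), and from 13 (without GFP-negative SIX2 library 3) to 60 (without GFP-negative SIX2 library 1) under the SIX2 plasmid (28 with all). The first count moved by over 1.5 times without any 1 library it compares (68 to 196, and 820), and without GFP-negative SIX2 library 2 (315), and the second also without library 2 of either SIX2 group (17 for GFP-positive, 14 for GFP-negative). The count was 2989 to 4302 and 2522 to 3494 for the plasmid label among GFP-negative and GFP-positive libraries. DESeq2 called 1087 and 294 genes between GFP labels under the control and SIX2 plasmids, and the cause was not tested. With the replicate number as a block 298 genes passed between GFP labels under the control plasmid. The numbers are not a pairing given by the labels, and deviations of same-numbered libraries correlated between -0.20 and 0.05. By Spearman's rho, 0 of the 5 genes most like each of Nr2e3, Clip4 and Ngfr stayed in the first 5, so these names depend on the measure. Nr2e3 with SIX2 rests on 1 to 13 reads per library, with 13 in GFP-negative library 3 against 1 and 2 in the other GFP-negative SIX2 libraries.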
